A study of Mus musculus with 8 samples.

Results

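Respiratory complex I is described here through the 54 genes whose names begin with Nduf or mt-Nd, out of 13677 genes measured in mouse ventricular heart. A rule on names chose them, set with earlier results of these data known, and Ndufa4l2 was left out of the 55 matching rows. Of the 54 genes, 47 lie in the nuclear and 7 in the mitochondrial genome. They comprise 36 nuclear protein-coding subunits (7 core and 29 accessory), the 7 mitochondrially encoded core subunits, 8 assembly factors named Ndufaf, Ndufa4, whose protein is now counted as a subunit of complex IV, and 2 rows that the annotation does not list as protein-coding (Ndufb1-ps and Ndufb4c). All 54 passed the filter on low values, and the smallest number of reads behind any of them in a library was 43.

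Poly(A) RNA of ventricle was sequenced from groups labelled C (n = 3), KO (n = 2, numbered 1 and 3) and DKO (n = 3). The series title states that ventricles lacking Vhl were compared with wild-type ventricles in a Wt1-Cre model, and the labels state no treatment before extraction. The letters C, KO and DKO are not spelled out, so the second change in DKO, the control genotype, strain, age and sex are not known here. Wt1 is best known in the heart as a gene of the epicardium, so Cre need not have acted in every cell of the ventricle. KO number 2 was not analysed here, and nothing states that libraries of a group came from separate animals, so the p-values measure the spread between these libraries, which may be technical.

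Complex I passes electrons from NADH to ubiquinone and pumps protons across the inner mitochondrial membrane. Its matrix arm holds an NADH-oxidising N module and a ubiquinone-reducing Q module, and its membrane arm holds the proton pumps. The 14 core subunits do the chemistry, accessory subunits surround and stabilise them, and assembly factors help to build the complex without staying in it. Heart muscle is rich in the complex because contraction depends on oxidative phosphorylation.

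Levels are in the deposited signal, which is on the CPM scale after a scaling factor for each library. Differences are on the log2(signal + 1) scale with a standard error (SE). A gene was called when limma's p, adjusted by Benjamini-Hochberg over 13544 genes, was under 0.05. Counts of genes that fell or rose, or were lower or higher in an alternative analysis, count called genes. A gene that was not called may still have been lower or higher. Libraries held 15028176 to 21202385 reads. Mitochondrial transcripts took 23.1% to 28.996% of the reads in C, 16.2% and 17.4% in KO, and 22.9%, 41.6% and 29.9% in DKO 1, 2 and 3, so DKO 2 stood apart. Vhl mRNA was 7.91 ± 0.925 (SD) in C, 8.64 ± 0.450 in KO and 10.3 ± 1.43 in DKO (limma, adjusted p = 0.708 for KO versus C and 0.589 for DKO versus C), so the whole-gene level did not separate the labels.

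In KO, 36 of the 54 complex I genes fell against C and 0 rose. Over all genes tested, 7.01% were called lower and 6.9% higher. The median difference over the 54 genes was -1.06 (range -1.89 to 0.13), beside 0.01 over all genes. Every KO library lay below every C library for 49 of the 54 genes, a pattern that 26.7% of all genes showed. The nuclear genes took 2.18% to 2.28% of the nuclear reads in C, 1.47% and 1.32% in KO, and 2.00%, 1.28% and 2.04% in DKO 1, 2 and 3. Both KO and all 3 DKO libraries therefore lay below C on this share, with DKO 2 lowest of all. In bulk tissue, fewer cells of a type and less RNA per cell cannot be told apart.

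The fall is relative to the other genes of a library, and its size depends on the scaling. The deposited factors were 1.36 and 1.37 in KO against 0.925 to 0.964 in C. With plain CPM, a setting added after the data were seen, the median over all genes moved to 0.48, with 195 genes lower and 4611 higher in place of 949 and 934. The median of the complex I genes was then -0.52 and 9 fell, still about as far below the median gene as with the deposited scaling. The count also rested on single libraries: 12 genes were lower without KO 3 (the largest move among these fits), 26 without KO 1 and 25 to 29 without one of the C libraries. Ndufa1, Ndufa3, Ndufa13, Ndufb2, Ndufc1, Ndufs6 and Ndufaf8 were past the threshold in all 21 alternative analyses.

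**Figure D1:**
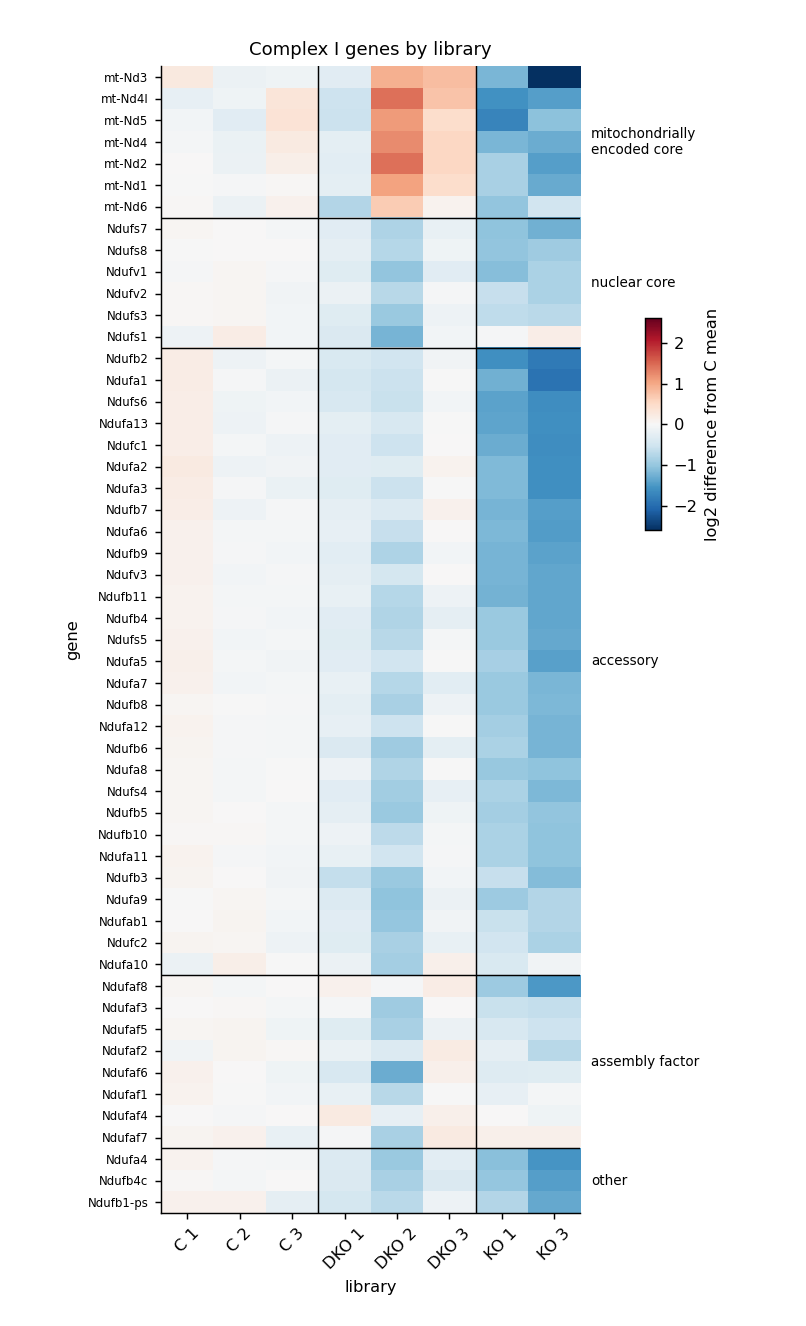
Log2 difference of 53 complex I genes (rows, by role), each from its own mean in C, in each of the 8 libraries (columns); red is higher and blue lower. Both KO libraries are blue for nearly all nuclear genes, and in DKO 2 the 7 mitochondrially encoded genes are high while nuclear genes are low.

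The 7 mitochondrially encoded subunits form the hydrophobic core of the membrane arm. All 7 were lower in both KO libraries than in every C library, but 2 passed the test, mt-Nd3 and mt-Nd4l. The median difference was -1.24. Mt-Nd3 encodes a subunit at the junction of the arms. Its signal was 1495, 1143 and 1176 in C, 553.5 and 209.7 in KO 1 and 3, and 1025, 2406 and 2209 in DKO 1, 2 and 3. KO lay below the other groups without overlap. Mt-Nd3 fell by 1.89 ± 0.42 (SE) (limma, adjusted p = 0.0132; adjusted p = 0.187 without KO 3 and 0.0531 without C 1).

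Mt-Nd4l, one of the smallest core subunits, had a signal of 659.4, 711.6 and 956.9 in C, 256.5 and 282.7 in KO and 526.1, 2081 and 1275 in DKO. It fell by 1.504 ± 0.43 (SE) in KO (limma, adjusted p = 0.0383), and the call ended without any one of the KO or C libraries (adjusted p = 0.0752 to 0.181). The proton pump subunits mt-Nd2, mt-Nd4 and mt-Nd5 had differences of -1.14, -1.24 and -1.39 (limma, adjusted p = 0.194, 0.218 and 0.103). Mt-Nd1, which forms part of the ubiquinone site, had -1.08 (adjusted p = 0.242). Mt-Nd6, the single subunit encoded on the light strand, had the smallest difference of the 7, at -0.76 (adjusted p = 0.22), and its C libraries (2693 to 3225) lay above its KO libraries (1466 and 2113).

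The 7 genes sit between bases 2751 and 14070 of the mitochondrial genome (GRCm38). Mt-Nd4l (M:9877-10173) and mt-Nd4 (M:10167-11544) are carried on 1 messenger RNA and overlap, as the ends of the annotated genes show. The 7 capital bases are shared by both, so a read across this junction belongs to both genes:
mt-Nd4l end (M:10134-10173, plus strand): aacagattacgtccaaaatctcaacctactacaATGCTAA
mt-Nd4 start (M:10167-10206, plus strand): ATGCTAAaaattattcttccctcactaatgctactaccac
Mt-Nd5 (11742 to 13565) and mt-Nd6 (13552 to 14070) overlap on opposite strands. The strand setting of the counting is not given in the sources used here. Reads in that overlap therefore cannot be assigned, and reads elsewhere in mt-Nd6 cannot be told from transcripts of the opposite strand.
Although on 1 messenger, mt-Nd4l and mt-Nd4 stood at 2613 ± 535 (SD) and 23930 ± 3467 per kilobase of transcript in C. These values divide the signal by annotated lengths of 297 and 1378 bases, and how reads spanning both genes were counted is not given. The gap is therefore not read as a difference in abundance. Mt-Nd1 was at 26701 ± 661, which did not differ from mt-Nd4 beyond the spread. The KO mean was 0.347 of the C mean for mt-Nd4l and 0.421 for mt-Nd4.

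**Figure D2:**
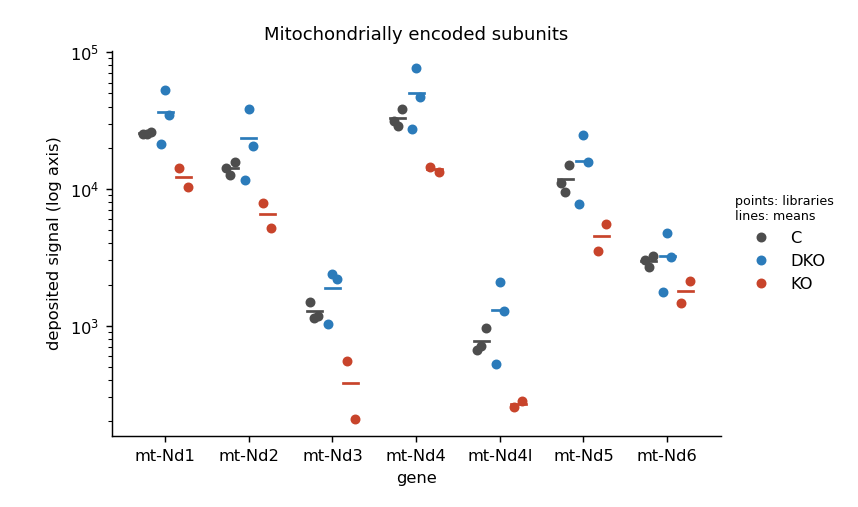
Deposited signal (log axis) of the 7 mitochondrially encoded subunits, with a point for each library and a line at each group mean. KO points lie below C points for every gene, and DKO spans from below every C library (DKO 1) to above every other library (DKO 2).

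The 7 nuclear core subunits include those that carry the flavin and the iron-sulfur clusters. Of the 7, 4 fell in KO, among them Ndufs7, Ndufs8 and Ndufv1. Ndufs7, which holds the last cluster before ubiquinone, had a signal of 834.5, 810.3 and 783.2 in C, 391.5 and 341.7 in KO and 657.7, 464.8 and 710.1 in DKO. The 3 groups did not overlap, with KO lowest and C highest. Ndufs7 fell by 1.14 ± 0.22 (SE) in KO (limma, adjusted p = 0.00665; adjusted p = 0.0845 without KO 3).

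Ndufs8, which binds a pair of clusters of the Q module, fell by 0.97 ± 0.20 (SE) (limma, adjusted p = 0.00904), from 319.8 to 323.8 in C to 157.4 and 169.4 in KO. Ndufv1, the flavin-binding subunit that accepts electrons from NADH, fell by 0.97 ± 0.25 (SE) (adjusted p = 0.0227). Both calls ended without either KO library (adjusted p = 0.0687 to 0.166), and that of Ndufv1 without any one C library (adjusted p = 0.0726 to 0.0807). With plain CPM Ndufs7, Ndufs8 and Ndufv1 did not pass (adjusted p = 0.173 to 0.362). Ndufv2 and Ndufs3 were lower in both KO libraries than in every C library, at -0.70 and -0.68, and did not pass (adjusted p = 0.0531 and 0.0685).

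Ndufs1, the largest subunit, which carries clusters of the N module, went its own way. Its signal was 230.8, 289.8 and 239.6 in C, 246.8 and 285.0 in KO and 194.7, 108.9 and 239.4 in DKO. KO lay inside the range of C. KO differed from C by 0.07 ± 0.28 (SE), with a 95% interval from -0.53 to 0.68 (limma, adjusted p = 0.892), and its sign turned without KO 3 (-0.03). Per kilobase of transcript in C, Ndufs7 was the most abundant nuclear core subunit at 823 ± 26.1 (SD), and Ndufv1 was at 536 ± 18.4. Ndufs3 at 331 ± 13.8 and Ndufs8 at 320.3 ± 2.03 did not differ beyond their spread. Ndufv2 was at 264.8 ± 13.4, and Ndufs1 was lowest at 95.2 ± 11.97.

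Of the 29 accessory subunits 26 fell in KO, in every module of the complex. The counts were 8 of the 10 nuclear subunits of the N module, 5 of 6 of the Q module, 7 of 9 of the proximal membrane arm and 10 of 11 of the distal membrane arm, core subunits included. The medians of these modules lay close together, at -1.06, -0.96, -1.15 and -1.06. The 3 accessory subunits that did not pass were Ndufc2 (-0.66, limma, adjusted p = 0.0516), Ndufab1, the mitochondrial acyl carrier protein (-0.67, adjusted p = 0.0975), and Ndufa10 (-0.24, adjusted p = 0.585).

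Ndufb2, a small subunit of the distal membrane arm, had the largest difference of the nuclear genes. Its signal was 466.0, 369.9 and 392.8 in C, 133.4 and 112.5 in KO and 308.6, 286.7 and 381.4 in DKO. KO lay far below both other groups, and DKO 3 lay within the range of C. Ndufb2 fell by 1.73 ± 0.19 (SE) in KO, to 0.302 of C (limma, adjusted p = 0.000426). Ndufa1, a single-pass membrane subunit known for mutations in X-linked complex I deficiency, was 354.9, 301.7 and 278.7 in C, 130.3 and 80.8 in KO and 226.3, 210.9 and 306.6 in DKO. KO was lowest again, without overlap, and Ndufa1 fell by 1.59 ± 0.24 (SE) (limma, adjusted p = 0.00178).

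Ndufs6, a zinc-binding subunit that joins the N module late in assembly, was 540.7, 442.4 and 458.3 in C, 180.9 and 156.7 in KO and 359.6, 319.8 and 454.0 in DKO. It fell by 1.502 ± 0.20 (SE) (limma, adjusted p = 0.00108). Ndufa13, also known as GRIM-19, a membrane subunit near the ubiquinone channel, had a signal of 586.0 to 726.7 in C and 248.1 and 212.1 in KO, and fell by 1.49 ± 0.20 (SE) (limma, adjusted p = 0.00114). For both genes KO overlapped neither other group, while DKO 3 lay within the range of C.

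Ndufa10, the largest accessory subunit of the membrane arm, was 299.7, 368.4 and 328.6 in C, 250.3 and 311.5 in KO and 299.0, 178.9 and 363.5 in DKO. The groups overlapped, and the 95% interval of its KO versus C difference ran from -0.83 to 0.34. Among accessory subunits in C, Ndufb9 was at 1269 ± 82.3 (SD) per kilobase of transcript and Ndufb8 at 1162 ± 33.5, while Ndufs4 was at 117.7 ± 4.52. Ndufs4, known for Leigh syndrome when mutated, fell by 0.999 ± 0.21 (SE) (adjusted p = 0.0106; adjusted p = 0.128 without KO 3).

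**Figure D3:**
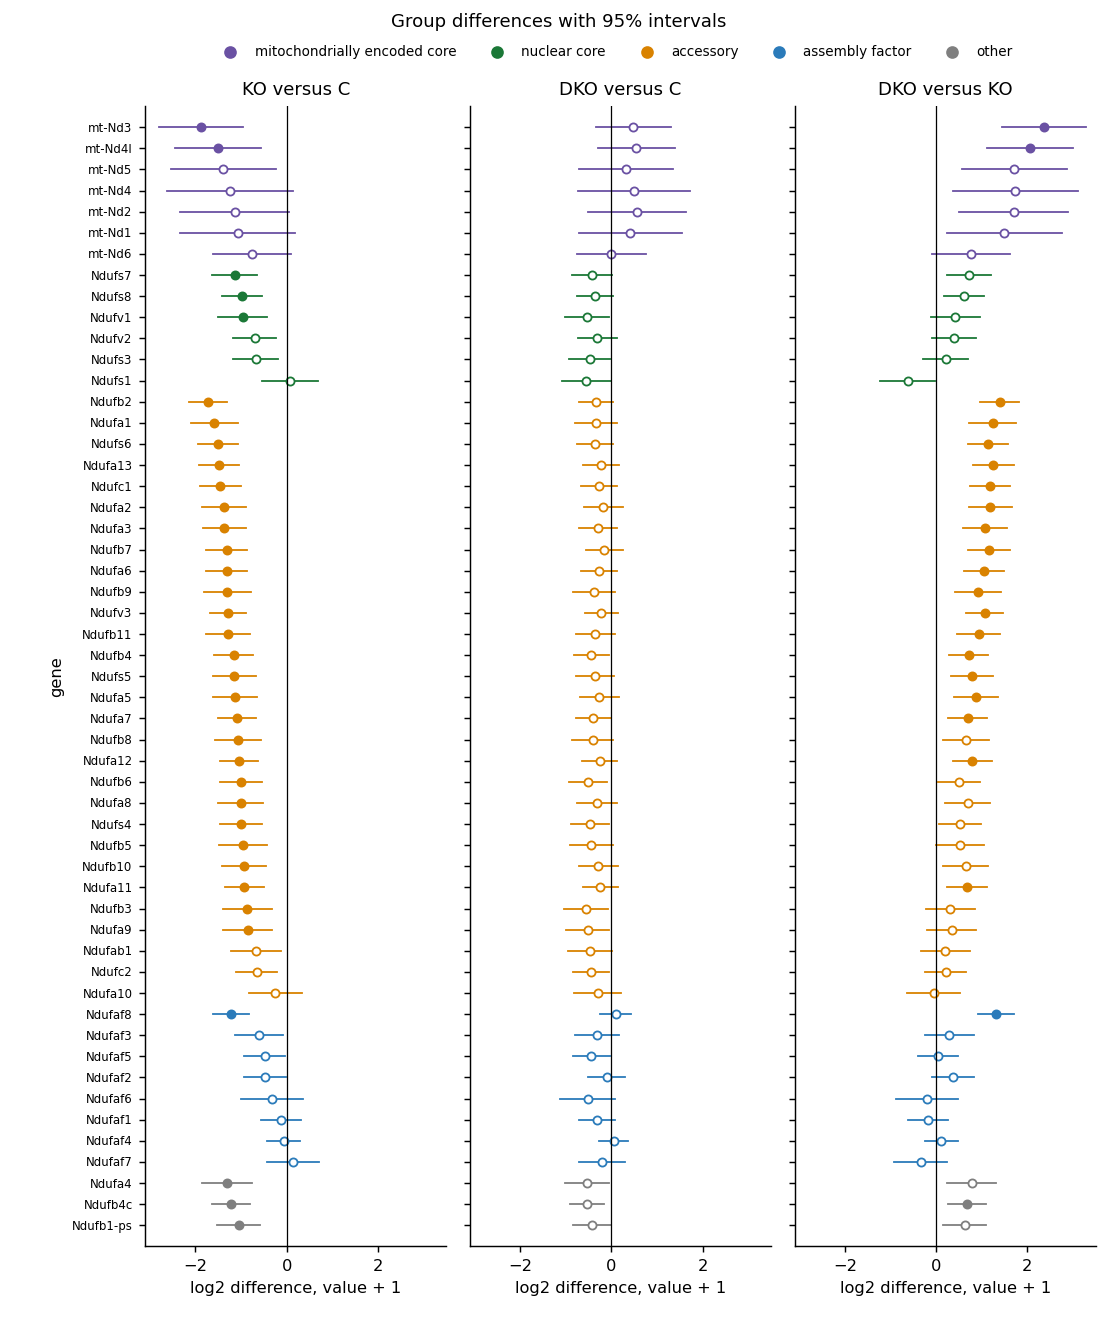
Log2 difference of 53 complex I genes in the 3 comparisons, each with its 95% interval from limma; filled points passed the adjusted threshold, and colour gives the role. In KO versus C the filled points lie between -1.89 and -0.86, none is filled in DKO versus C, and 22 are filled above 0 in DKO versus KO.

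Start regions were searched because nuclear complex I genes are known to share promoter elements. RefSeq promoter windows (GRCm38.p6, 250 bases before to 50 after a gene start) were matched for 40 of the 54 genes, of which 29 fell in KO. The YY1 motif AANATGGC, searched on both strands, was in the windows of 14 of the 40 genes (35%) and in 6.08% of 32544 distinct promoters. Of the 14, 13 were among the 29 called lower and 1, Ndufaf3, was among the 11 not called. Ndufaf3 was also lower in both KO libraries (21.9 and 21.2) than in every C library (lowest 32.1), so this split rests on the threshold. In 8 of the 13 the ATG inside the motif is the annotated start codon. They are shown, since this placing recurs among genes that fell, in 30 bases each, on the gene's strand, with the motif in capitals:
Ndufa3 (chr7:3617384-3617413, plus strand): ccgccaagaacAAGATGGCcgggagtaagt
Ndufa7 (chr17:33824616-33824645, plus strand): ggagcggaaggAATATGGCgtccgctactc
Ndufa9 (chr6:126849097-126849126, minus strand): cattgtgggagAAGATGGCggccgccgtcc
Ndufb8 (chr19:44555393-44555422, minus strand): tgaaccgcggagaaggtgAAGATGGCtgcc
Ndufc1 (chr3:51408915-51408944, minus strand): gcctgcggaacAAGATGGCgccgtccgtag
Ndufs4 (chr13:114388045-114388074, minus strand): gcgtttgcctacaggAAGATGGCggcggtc
Ndufs6 (chr13:73328433-73328462, minus strand): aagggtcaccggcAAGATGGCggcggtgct
Ndufs7 (chr10:80249462-80249491, plus strand): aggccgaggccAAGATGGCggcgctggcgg
All 8 fell in KO, as did Ndufaf8, whose AAGATGGC lies 10 bases after its start without being the annotated start codon. On the gene's strand and wholly within the 50 bases after the start, the motif was in 8 of the 40 genes (20%) and in 1.39% of all promoters. That count holds Ndufaf8 and leaves out Ndufa7, whose motif begins 18 bases before the RefSeq start. It was made after the pattern was seen, and the 1.39% was not limited to windows that hold a start codon. The 11 genes not called include assembly factors, so motif and role were not separated. They also include genes lower in both KO libraries than in every C library, such as Ndufc2 and Ndufv2. These matches describe the sequences, and binding was not measured.

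The core of the NRF1 motif, GCGCANGCG on either strand, was in 10 of the 40 genes (25%) and in 6.29% of all promoters. It was in 8 genes called lower and in 2 not called, Ndufaf4 and Ndufaf5. The windows below show 2 genes called lower and 1 not called, with the motif in capitals:
Ndufs6 (chr13:73328479-73328508, minus strand): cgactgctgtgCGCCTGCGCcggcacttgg
Ndufb4 (chr16:37654372-37654401, minus strand): ccctcatatccGCGCAGGCGcagatgtgcg
Ndufaf4 (chr4:24897959-24897988, plus strand): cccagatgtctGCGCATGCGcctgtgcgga
The ETS motif CCGGAAGT was in 1 of the 40 genes (3.92% of all promoters), the estrogen-related receptor motif TCAAGGTCA in 0 (0.412%), and the hypoxia response core ACGTG in 7 (17.5%, beside 19.7% of all promoters).
Ndufb2, the nuclear gene with the largest difference, held none of these motifs in the 250 bases before its start (chr6:39592315-39592564, plus strand):
Ndufb2: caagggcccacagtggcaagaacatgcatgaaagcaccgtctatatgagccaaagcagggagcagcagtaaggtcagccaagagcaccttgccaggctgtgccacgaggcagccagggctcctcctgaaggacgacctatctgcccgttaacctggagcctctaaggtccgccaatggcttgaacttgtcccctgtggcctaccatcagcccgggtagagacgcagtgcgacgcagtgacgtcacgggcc

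Of the 8 assembly factors, Ndufaf8 alone was called lower in KO. Differences of 7 of the 8 lay below 0, and for 5 both KO libraries lay below every C library. The median over the 8 was -0.40. Ndufaf8, a small partner of Ndufaf5, which modifies Ndufs7, was 52.5, 49.3 and 50.9 in C, 26.0 and 17.4 in KO and 55.5, 49.7 and 58.2 in DKO. KO lay below both other groups, and C and DKO overlapped. Ndufaf8 fell by 1.22 ± 0.18 (SE) (limma, adjusted p = 0.00164). Its partner Ndufaf5 was lower in both KO libraries than in C, at -0.48 (adjusted p = 0.141), and Ndufaf3, which acts early in the Q module, was at -0.61 (adjusted p = 0.12).

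Ndufaf2, Ndufaf6, Ndufaf1 and Ndufaf4 had differences of -0.48, -0.32, -0.13 and -0.06 (adjusted p = 0.152 to 0.853). Ndufaf7, a methyltransferase of the early assembly steps, was the one gene of the 54 with both KO libraries (16.1 and 15.96) above every C library (12.6 to 15.8), and did not pass (0.13, adjusted p = 0.78). Per kilobase in C, the assembly factors stood at 8.35 (Ndufaf7) to 65.2 (Ndufaf8), below every subunit. The difference between assembly factors and subunits was not tested.

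Ndufa4 was 940.7 to 1040.45 in C, 463.2 and 336.1 in KO and 501.0 to 809.1 in DKO. It fell by 1.31 ± 0.25 (SE) (limma, adjusted p = 0.00629; adjusted p = 0.0966 without KO 3). Its paralog Ndufa4l2, a known target of hypoxia-inducible factors that the definition leaves out, rose instead: it was 19.1 to 25.7 in C, 61.6 and 70.8 in KO and 20.6 to 30.6 in DKO. The rise was 1.53 ± 0.20 (SE) (limma, adjusted p = 0.00101), and in DKO it was lower than in KO by 1.27 ± 0.20 (adjusted p = 0.0031). Ndufa4 was thus lowest in KO and Ndufa4l2 highest, and neither gene's KO libraries overlapped the other groups.

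Ndufb4 fell by 1.16 ± 0.20 (SE) and the pseudogene row Ndufb4c by 1.21 ± 0.19 (SE) (limma, adjusted p = 0.00341 and 0.00247). All 390 bases of Ndufb4c (15:73809507-73809896) are identical to the Ndufb4 messenger, as their first 60 shared bases show:
Ndufb4, bases 95 to 154 of its transcript: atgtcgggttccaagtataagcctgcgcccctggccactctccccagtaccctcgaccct
Ndufb4c, bases 1 to 60: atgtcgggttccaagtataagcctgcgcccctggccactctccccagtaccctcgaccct
Reads inside this stretch cannot be told apart. The 2 rows had similar signals, closest in KO 3 (44.8 and 45.6) and farthest apart in C 3 (110.4 and 125.8). They are not independent observations and their levels are uncertain. Without Ndufb4c, 35 of 53 genes were called lower in KO than in C and 21 of 53 called higher in DKO than in KO. Ndufb1-ps, listed as a long non-coding RNA, fell by 1.05 ± 0.22 (SE) (adjusted p = 0.00867; adjusted p = 0.124 without KO 3).

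In DKO against KO 22 of the 54 genes were called higher and 0 lower, beside 6.08% of all genes higher and 5.73% lower. By sign alone, 5 of the 54 lay below 0. The median was 0.69, beside 0.01 over all genes, and every DKO library lay above every KO library for 33 of the 54, as for 20.5% of all genes. The 22 were 18 of the 29 accessory subunits, 0 of the 7 nuclear core subunits, mt-Nd3, mt-Nd4l, Ndufaf8 and Ndufb4c. Both this comparison and that of KO with C use the same 2 KO libraries, so a low KO value enters both.

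The differences were led by mt-Nd3 (2.37 ± 0.42 SE, limma, adjusted p = 0.00539), mt-Nd4l (2.05 ± 0.43, adjusted p = 0.0116), Ndufb2 (1.39 ± 0.19, adjusted p = 0.0016), Ndufaf8 (1.31 ± 0.18, adjusted p = 0.00138) and Ndufa13 (1.26 ± 0.20, adjusted p = 0.00341). The core subunits nearest to the threshold were mt-Nd5 (1.72, adjusted p = 0.0563), Ndufs7 (0.71, adjusted p = 0.0577), mt-Nd2 (1.70, adjusted p = 0.0662) and Ndufs8 (0.62, adjusted p = 0.069). Ndufs1 pointed the other way, at -0.62 (95% interval -1.23 to -0.02, adjusted p = 0.163), with every DKO library below both KO libraries. Ndufa10, Ndufaf5 and Ndufaf4 differed least, at -0.05, 0.04 and 0.11.

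This count moved strongly with single libraries: 2 genes (Ndufaf8 and Ndufb2) were higher without KO 3, 13 without KO 1 and 42 without DKO 2. The calls of mt-Nd3 and Ndufa13 ended without KO 3 (adjusted p = 0.0929 and 0.0545), and that of mt-Nd4l without either KO library (adjusted p = 0.0857 and 0.0931). With plain CPM the median over all genes was -0.57 and that of the complex I genes 0.04, with 3 higher and 3 lower. Ndufaf8 was past the threshold in all 21 alternatives.

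Between DKO and C 0 of the 54 genes passed in either direction (limma, edgeR and DESeq2), where 0.0812% of all genes were called lower and 0.0738% higher. At an unadjusted p under 0.05 there were 14 genes, all nuclear and all lower, beside 8.5% of all genes. The median was -0.36 over the 47 nuclear genes, 45 of them below 0, and 0.48 over the 7 mitochondrial ones. Every DKO library lay below every C library for 19 genes, as for 7.25% of all genes. The smallest unadjusted p, 0.00919, belonged to Ndufb4c (-0.53, limma, adjusted p = 0.491), and Ndufb6 followed (-0.52, adjusted p = 0.553). The genes that differed least were mt-Nd6 (0.00), Ndufaf4 (0.05) and Ndufaf8 (0.09).

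The 3 DKO libraries did not act alike. Against the C mean, nuclear genes had medians of -0.29, -0.74 and -0.07 in libraries 1, 2 and 3, and the mitochondrial genes had medians of -0.30, 1.10 and 0.53. For 46 of the 47 nuclear genes DKO 2 was the lowest of the C and DKO libraries, and for all 7 mitochondrial genes it was the highest of all 8. Reads of the 7 mitochondrial subunits outnumbered those of the 47 nuclear genes by 18.9 to 1 in DKO 2, by 4.93 and 7.56 in the other DKO libraries, by 4.64 to 5.91 in C and by 4.72 and 4.61 in KO. KO thus had about the ratio of C, both sets being lower, while DKO 2 had a ratio that no other library approached. Without DKO 2 the median DKO versus C difference was -0.16, and 0 genes passed.

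**Figure D4:**
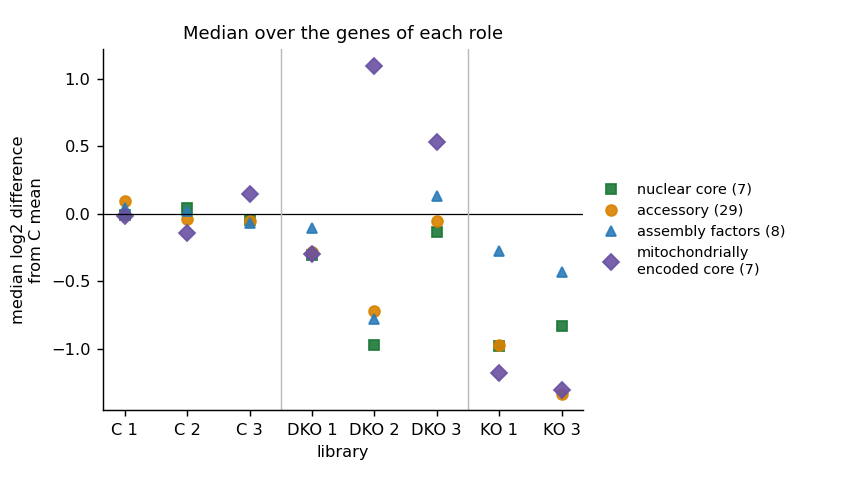
Median log2 difference from the C mean over the genes of each role, in each library. In KO 1 and KO 3 the subunit medians lie between -1.33 and -0.83 and the assembly factors at -0.28 and -0.43, and in DKO 2 the mitochondrially encoded genes (1.10) part from the nuclear ones.

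Among the nuclear genes, those with short coding sequences had the larger differences in KO. Over the 45 with an annotated coding sequence, Spearman's rho between coding length and the KO versus C difference was 0.645, and over the 36 subunits it was 0.582. This is a description across genes, which are not independent replicates and share libraries. Transcript length, another measure, had a rho of 0.488 with the same difference over the 47 nuclear genes and 0.40 over the 36 subunits. Over 13533 genes its rho was 0.285, so length went with the difference outside complex I too. When a trend fitted on transcript length and GC was taken out of each library, 21 of the 36 genes remained lower in KO and 11 of the 22 remained higher in DKO than in KO, and the medians were -0.66 and 0.37. Among those that remained in KO versus C, Ndufa1 was then at -0.88, Ndufs6 at -0.89 and Ndufaf8 at -0.75, smaller than the -1.59, -1.502 and -1.22 without this step. Ndufb2 was at -1.82, and its annotated transcript is 4371 bases long although its coding sequence has 315.

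**Figure D5:**
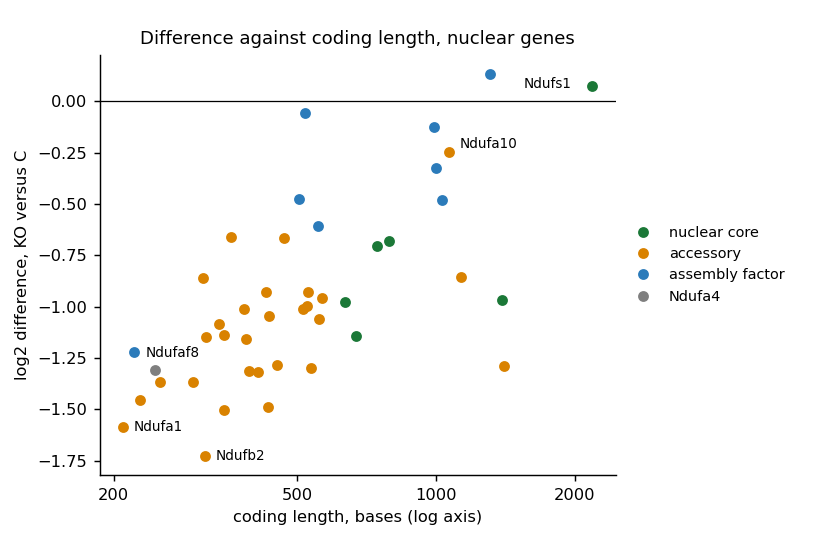
KO versus C log2 difference against coding length (log axis) for 44 nuclear complex I genes, coloured by role. Short genes such as Ndufa1 and Ndufb2 lie lowest, and the longest, Ndufs1, lies at 0.07.

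Other genes of the pathway were read from lists of known function. The counts that follow stand beside 7.01% of all genes lower and 6.9% higher in KO. Of 14 further assembly factors 1 fell in KO, a share near that background. It was Ecsit, which acts in the early assembly complex (-0.73, limma, adjusted p = 0.0230). The median of these 14 was -0.35. Of 5 genes tied to supercomplexes 3 fell: Tmem256 (-1.14), Cox7a2l, the supercomplex factor SCAF1 (-0.90), and Uqcc3 (-0.88). The same 3 were higher in DKO than in KO, by 0.97, 0.82 and 0.91.

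Of the 6 other mitochondrial messengers 3 fell in KO, mt-Co2 (-2.31), mt-Co3 (-2.16) and mt-Atp6 (-1.38), so lower values were not a feature of the mt-Nd genes alone. Of 18 genes for mitochondrial transcription and messenger upkeep 2 fell, also near the background, Slirp, which stabilises mitochondrial messengers (-0.90), and Mterf4, a ribosome assembly factor (-0.76), and the median was -0.10. Of 13 nuclear regulators of oxidative phosphorylation 0 fell and 2 rose, Ppara (1.27) and Pprc1 (0.66), a count too small to set against the background. Nrf1 (0.30), Yy1 (0.06), Gabpa (0.07), Esrra (-0.37) and Ppargc1a (-0.08) did not pass (adjusted p = 0.143 to 0.889).

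Cell type markers moved with the groups, and their part in the complex I results was not tested. The summed signal of 10 cardiomyocyte markers was 56592 to 61013 in C, 36981 and 42854 in KO and 35375 (DKO 2) to 58811 in DKO. Myh6, the largest part of this sum, was at -0.89 in KO versus C (limma, adjusted p = 0.263). The median over the 10 was -0.29, with 8 below 0 and Actc1 (0.37) and Ttn (0.26) above it, and 1 of the 10 fell in KO (Tnni3). Of 4 ventricle markers 0 fell and 2 rose in KO, Irx4 (0.80, limma, adjusted p = 0.0299) and Lbh (0.98, adjusted p = 0.0201), with a median of 0.46 over the 4. Myl2, which makes up most of their summed signal (8681 to 9766 in C, 4954 and 4070 in KO), was at -1.12 (adjusted p = 0.0643). All 11 skeletal muscle markers in the table fell in KO. In DKO against C 7 of 11 fell, beside 0.0812% of all genes called lower there. Their summed signal was 3782 to 4762 in C, 1449 and 1760 in KO and 2308 to 4061 in DKO, most of it Ckm, which heart muscle also expresses. The fast myosin Myh4 was 17.4 to 127.6 in C, 0.490 to 4.77 in DKO and near 0 in KO. Of 9 fibroblast markers 4 rose in KO, the matrix genes Col1a1, Col1a2, Col3a1 and Mfap5, and 2 lay below 0, Pdgfra (-0.34) and Gsn (-0.34). The median over the 9 was 0.79. Their sums overlapped, at 1075 to 1860 in C and 1712 and 2232 in KO, beside 1290 to 3336 in DKO. Of 5 epicardial markers 3 rose in KO, Wt1 (0.94, limma, adjusted p = 0.0302), Krt19 (2.80, adjusted p = 0.000221) and Aldh1a2 (1.46, adjusted p = 0.00551). Upk3b (-0.22) and Msln (0.21) did not pass, and the median over the 5 was 0.94. Levels were low, with Krt19 at 0.0306 to 0.392 in C. Krt19 and Aldh1a2 were lower in DKO than in KO, at -2.47 and -1.21 (adjusted p = 0.000383 and 0.0155). Of 8 macrophage markers 1 rose in KO, C1qb (0.62, limma, adjusted p = 0.0311), a count too small to set against the background. The median over the 8 was 0.48.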

How the data were processed

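The deposited table gives a signal for each gene in 8 libraries. Each signal value is, as read from the values, a read count plus 0.5, divided by a library size times a scaling factor and put on the CPM scale; 100% of values came out as whole reads within 0.001 reads, and edgeR's TMM factors computed from them matched the deposited ones. RSEM 1.3.1, cutadapt, limma and the build GRCm38 are listed, per the submitters' processing notes; the strand setting is not given in the sources used here. Coordinates, lengths and start codons come from GENCODE M21 (GRCm38), with the longest principal transcript of a gene, a choice made after the annotation was seen.

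The 13544 genes whose signal reached 1 in 2 or more libraries entered limma 3.58.1 (R 4.3.3) as log2(signal + 1), a scale that makes changes of low genes look smaller, in a model of 3 group means over 8 libraries (5 residual degrees of freedom), with p adjusted by Benjamini-Hochberg. Recovered reads were also tested with voom, edgeR 4.0.16 (quasi-likelihood) and DESeq2 1.42.0. The scripts were tested on simulated data. The members and lists were chosen with earlier results of these data known. One core subunit is not reported here by itself and not drawn, but is part of the counts. Named are the other core subunits, Ndufaf genes and Ndufa4, in each comparison the 5 largest called and 3 smallest differences, called genes of the further pathway lists (up to 3 in each direction), Ndufa4l2 and Vhl; others were named after their values were seen.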

Additional observations from a re-analysis of the deposited data

How the results depend on the processing

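Of 378 values of single named genes under 21 alternatives, 331 kept their direction and side of the threshold, 43 fell short of it and 4 changed sign. Those were Ndufs1 in KO versus C with a replicate block (-0.0406) and without KO 3 (-0.0306, beside 0.176 without KO 1), and Ndufa10 with quantile normalisation (0.0286) and plain CPM (a setting chosen after seeing the data) (0.29). For KO versus C the number of genes lower was 21 with the length and GC trend removed, 9 with plain CPM and 12 to 46 leaving out 1 library, and the median was -0.76 with quantile normalisation, -0.66 with the trend removed, -0.52 with plain CPM and -1.20 to -0.96 leaving out 1 library. For DKO versus KO the number higher was 13 with only those groups fitted, 11 with the trend removed, 3 with plain CPM (3 were then lower) and 2 to 42 leaving out 1 library, and the median was 0.369 with the trend removed and 0.0353 with plain CPM. DESeq2 called 44 and 33, edgeR 36 and 25. The cause of these shifts was not tested. Of 7 same-numbered pairs 5 correlated above 0.1 and 2 did not (range -0.27 to 0.22), so a pairing by number was not shown; with the replicate block 37 genes were lower in KO than in C, 22 higher in DKO than in KO and 0 different between DKO and C. With 2 KO libraries, nuclear differences near 0.7 on the log2 scale lay at the edge of what passed.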
